A study of Mus musculus with 50 samples.

Results

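The oncofetal markers followed here are 8 genes that the fetal liver or other embryonic tissue uses and that hepatocellular carcinoma can use again, measured in liver tumours of C3H/He mice. They are Afp, Gpc3, Igdcc4, Igf2bp1, Igf2bp3, Lin28b, Golm1 and Tspan8. Each was taken by its symbol from the count table, which holds 45792 genes, of which 29292 had a count in at least 1 library. All 8 symbols had a row.

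Oncofetal genes are active in the embryo, are shut down in the adult organ and come back in tumours. In the liver the textbook case is Afp, the fetal counterpart of serum albumin, which is switched off after birth and is measured in blood as a marker of liver cancer. Another branch of the programme runs through the RNA-binding protein Lin28b, which blocks the maturation of let-7 microRNAs, so that let-7 targets such as the Igf2bp family are released.

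RNA-seq was run on 50 tissue samples taken at 48 weeks. Non-tumour liver gave 12 samples on the control diet (low in trans fat, described as without sugar) and 11 on the ALIOS diet. ALIOS is an American lifestyle diet rich in fat and trans fat with fructose in the drinking water. Tumours that arose without a carcinogen came from the ALIOS diet (13, of which T1 was left out by the rule that set the members, leaving 12) and from the control diet (1, T7). Tumours that arose with coadministration of the liver carcinogen diethylnitrosamine (DEN) came from the ALIOS diet (8) and from the control diet (5). DEN tumours were set against livers labelled without DEN, so that in those comparisons DEN exposure and tumour cannot be told apart. The labels do not say which samples share a mouse, and p-values therefore measure the spread between samples. T1 held 30950 CPM of kidney marker genes (counts normalised to library size) against 0.34 to 24.1 in the other tumours, and 6169 CPM of hepatocyte markers against 97860 to 306700. Library totals ran from 23798251 to 45751398 counts, so that 3 counts, the limit that a value of 0 allows, equalled 0.053 to 0.165 CPM after TMM scaling, with counting error only.

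The 8 genes parted into 5 that rose in tumours of every kind tested and 3 that were barely counted. Afp, Gpc3, Igdcc4, Golm1 and Tspan8 were higher in the spontaneous ALIOS tumours, in the DEN tumours of the ALIOS diet and in the DEN tumours of the control diet, by 14.2-fold to 942-fold. The 942-fold value was for Igdcc4, over control-diet livers with 1 to 5 counts. Igf2bp3 stayed at 1 to 20 counts per tumour, Igf2bp1 at 0 to 2, and Lin28b had no count in any of the 26 tumours. In bulk tissue, more cells that use a gene and more RNA per cell cannot be told apart.

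**Figure D1:**
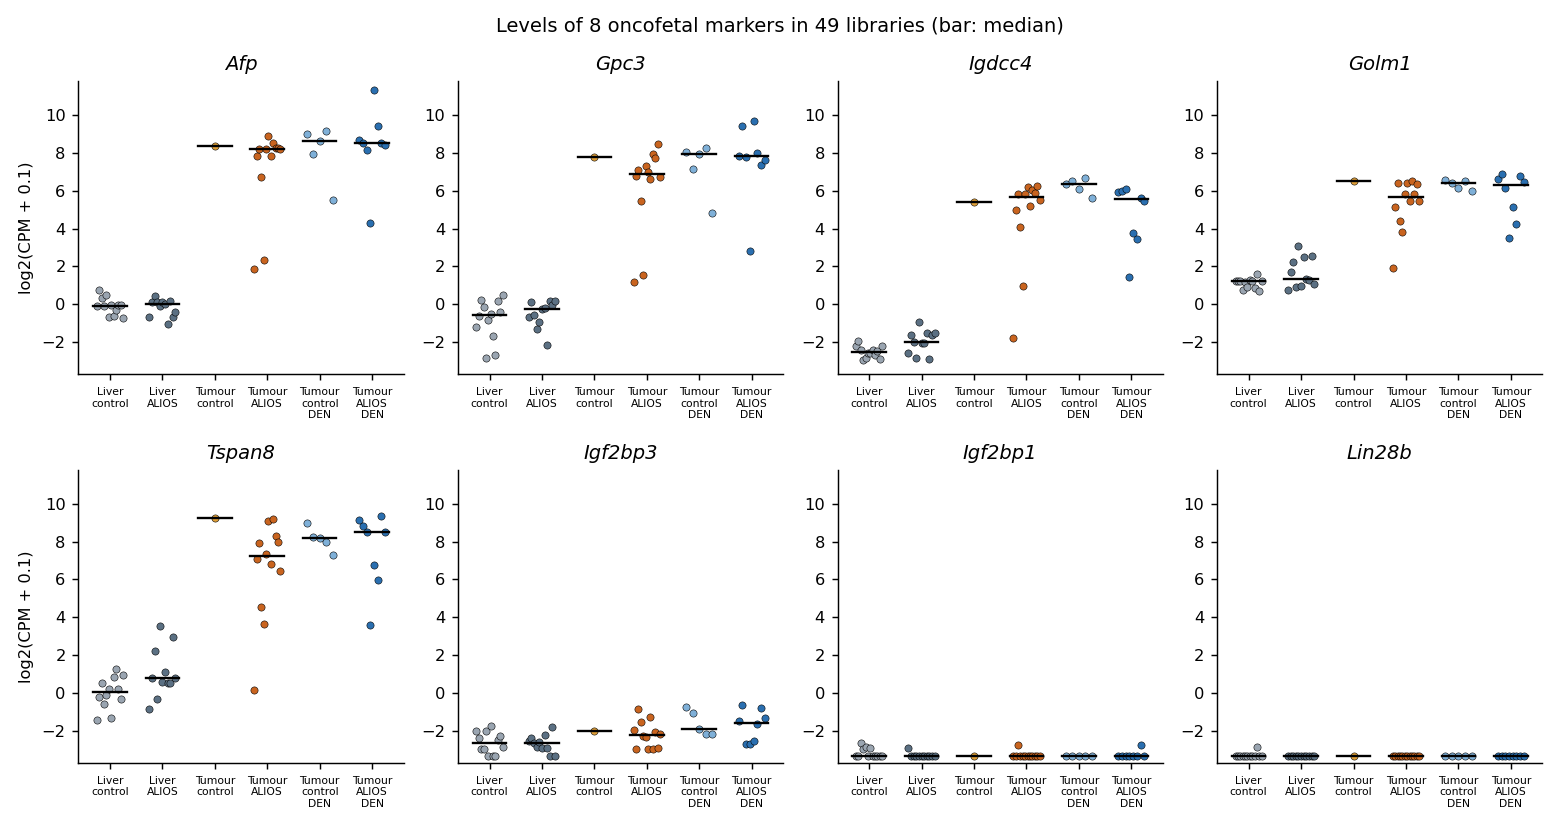
Level of each of the 8 genes, as log2 of CPM with 0.1 added, in every library but T1, by diet and tissue group, with 1 point per library and a bar at the group median. Afp, Gpc3, Igdcc4, Golm1 and Tspan8 lie far above the livers in nearly every tumour, while Igf2bp1, Igf2bp3 and Lin28b stay at the bottom of the scale in tumour and liver.

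Afp (chromosome 5, 90490737 to 90508907, plus strand of GRCm38) encodes alpha-fetoprotein, a carrier protein that the fetal liver secretes. The lowest, median and highest levels were 0.514, 0.856 and 1.57 CPM in control-diet livers and 0.382, 0.903 and 1.25 CPM in ALIOS livers. Both liver groups thus lay near 1 CPM. In the spontaneous ALIOS tumours they were 3.60 (T2), 296 and 483.5 CPM (T9). The lone control-diet tumour T7 had 328.6 CPM. In the DEN tumours of the ALIOS diet the lowest, median and highest were 19.75 (T23), 368.3 and 2567 CPM (T24). In the DEN tumours of the control diet the 5 values were 513.4, 248.4, 395.4, 578.8 and 46.04 CPM in T17 to T21. No tumour overlapped a liver, though T2 and T6 (5.05 CPM) came close. The log2 fold change against livers of the same diet was 8.18 in spontaneous tumours (SE 0.67, 289-fold, edgeR quasi-likelihood adjusted p = 3.03e-08). It was 9.59 in ALIOS DEN tumours (SE 0.67, adjusted p = 8.08e-09), falling to 8.77 without T24, and 8.64 in control-diet DEN tumours (SE 0.40, adjusted p = 2.11e-12).

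Gpc3 (chromosome X, 52272426 to 52613950, minus strand) encodes glypican 3, a heparan sulphate proteoglycan on the surface of embryonic cells and a tissue stain for liver cancer. Livers had 0.0376 to 1.31 CPM on the control diet (median 0.568) and 0.127 to 1.05 CPM on the ALIOS diet (median 0.732). Spontaneous ALIOS tumours ran from 2.21 (T2) through a median of 120.0 to 357.5 CPM (T13), and T7 had 217.9 CPM. T2 was the lowest of them, as it was for Afp. ALIOS DEN tumours ran from 7.05 (T23) through 225.5 to 815.3 CPM (T24). T17 to T21 had 264.9, 143.1, 242.9, 303.5 and 28.57 CPM. As for Afp, each tumour lay above each liver, and T24 was highest of all. The log2 fold changes were 7.61 (SE 0.71, adjusted p = 6.36e-08), 8.91 (SE 0.65, adjusted p = 1.12e-08) and 8.36 (SE 0.48, adjusted p = 5.6e-11) in the 3 tumour groups in the order used for Afp (edgeR).

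Igdcc4 (chromosome 9, 65101486 to 65137940, plus strand), also called Nope, encodes an immunoglobulin-family surface protein of embryonic liver and neural tissue. It was nearly silent in liver, at 0.0311 to 0.160 CPM on the control diet (median 0.0747) and 0.0366 to 0.429 CPM on the ALIOS diet (median 0.153). Spontaneous ALIOS tumours ran from 0.194 (T2) through 50.9 to 76.4 CPM (T13), and T7 had 43.0 CPM. Here T2 fell inside the range of the ALIOS livers. ALIOS DEN tumours ran from 2.59 (T23) through 46.7 to 67.6 CPM (T22). T17 to T21 had 82.13, 91.77, 67.15, 104.0 and 49.39 CPM. T24 and T25, the highest DEN tumours for Afp, were among the lower ones here at 13.4 and 10.9 CPM. The log2 fold changes were 7.85 (SE 0.72, adjusted p = 5.99e-08), 7.74 (SE 0.57, adjusted p = 1.44e-08) and 9.88 (SE 0.20, adjusted p = 2.07e-17, edgeR), the last of them a 942-fold difference. Control-diet livers had only 1 to 5 counts of Igdcc4, so the size of this difference is uncertain.

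Golm1 (chromosome 13, 59634626 to 59675811, minus strand) encodes a Golgi membrane protein that diseased hepatocytes release into the blood. Control-diet livers had 1.54 to 2.91 CPM (median 2.22) and ALIOS livers had 1.60 to 8.46 CPM (median 2.39, highest N17). Spontaneous ALIOS tumours ran from 3.68 (T2) through 50.8 to 92.8 CPM (T11), and T7 had 91.6 CPM. T2 lay within the range of the ALIOS livers. ALIOS DEN tumours ran from 11.2 (T23) through 78.8 to 116.5 CPM (T16). T17 to T21 had 93.28, 84.14, 69.72, 90.0 and 63.53 CPM, all above every control-diet liver. The log2 fold changes were the smallest of the 5 genes, at 3.82 (SE 0.44, adjusted p = 4.62e-07), 4.27 (SE 0.45, adjusted p = 4.89e-07) and 5.27 (SE 0.12, adjusted p = 1.36e-16, edgeR). Golm1 shares 1297 exon bases with Naa35 on the opposite strand. Naa35 was at 26.1 to 35.4 CPM in livers and 18.4 to 26.8 CPM in tumours.

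Tspan8 (chromosome 10, 115816832 to 115849893, plus strand) encodes a tetraspanin, a membrane organiser of epithelial cells and of exosomes. Livers had 0.273 to 2.31 CPM on the control diet (median 0.937) and 0.453 to 11.7 CPM on the ALIOS diet (median 1.65, highest N17). Spontaneous ALIOS tumours ran from 1.01 (T2) through 149.9 to 590.8 CPM (T11), and T7 had 617.9 CPM. T7 was thus above each spontaneous ALIOS tumour. ALIOS DEN tumours ran from 11.9 (T23) through 367.2 to 657.4 CPM (T26). T17 to T21 had 501.0, 300.6, 290.5, 252.4 and 157.5 CPM. T2 lay among the livers and T23 just above the highest of them. The log2 fold changes were 6.01 (SE 0.82, adjusted p = 3.01e-06), 6.71 (SE 0.76, adjusted p = 1.09e-06) and 8.19 (SE 0.37, adjusted p = 1.57e-12, edgeR).

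In each of the 3 comparisons with liver 5 of the 8 genes were called higher and 0 lower, and the other 3 did not pass the filter on low counts. Among all genes tested, 26.9% were called higher in spontaneous ALIOS tumours, 27.7% in ALIOS DEN tumours and 27.3% in control-diet DEN tumours. By log2 fold change, Afp ranked 3rd of 14183 genes in spontaneous ALIOS tumours, 3rd of 14434 in ALIOS DEN tumours and 26th of 14731 in control-diet DEN tumours. Each tumour was above each liver of its comparison for 2 of the 8 genes in spontaneous ALIOS tumours (Afp and Gpc3; 1.47% of all genes tested), for 5 in ALIOS DEN tumours (4.21%) and for 5 in control-diet DEN tumours (11.4%).

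**Figure D2:**
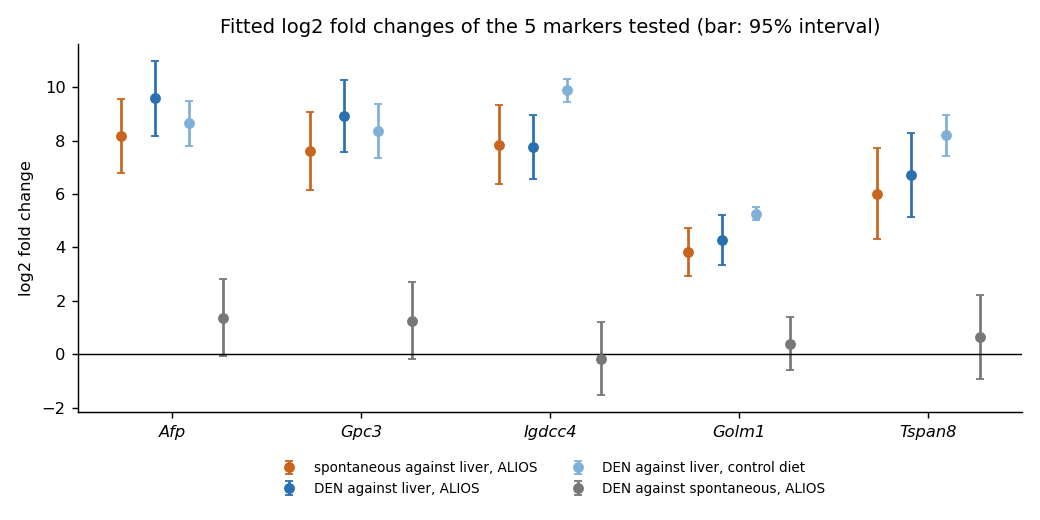
Log2 fold change of Afp, Gpc3, Igdcc4, Golm1 and Tspan8 in 3 tumour groups against non-tumour liver of the same diet (edgeR), and of DEN against spontaneous tumours in grey, with bars of the 95% interval. The values against liver lie between 3.82 and 9.88, lowest for Golm1, and the grey intervals all include 0; both ALIOS comparisons with liver use the same 11 livers.

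Per kilobase of exon, the median level over the 26 tumours fell from Tspan8 (148.1 CPM per kb) through Afp (91.25), Gpc3 (67.73), Golm1 (15.89) and Igdcc4 (5.551) to Igf2bp3 (0.01767). Neighbours among Tspan8, Afp and Gpc3 overlapped widely from tumour to tumour. Over the 23 livers the order by the same measure was Tspan8 (0.7861 CPM per kb), Golm1 (0.5062), Afp (0.2557), Gpc3 (0.2198) and Igdcc4 (0.009603). By median, Golm1 stood above Afp and Gpc3 in liver and below them in tumours.

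The 3 remaining genes belong to the Lin28b and let-7 branch. Lin28b (chromosome 10, 45376620 to 45486395, minus strand) had 0 counts in 26 of 26 tumours and in 22 of 23 livers, with 1 count in N10. Igf2bp1 (chromosome 11, 95957163 to 96005940, minus strand), an RNA-binding protein that steadies growth-related messages in the embryo, had 0 counts in 24 of 26 tumours and 18 of 23 livers. Its highest value in any of these libraries was 2 counts. T4 and T26, with 2 counts each, were the tumours in which Igf2bp1 was counted at all.

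Igf2bp3 (chromosome 6, 49085223 to 49214957, minus strand), a relative of Igf2bp1 and a stain for several carcinomas, had 0 to 6 counts in livers and 1 to 20 in tumours (median 5, highest T26); on the CPM scale T16 was highest, at 0.5496 CPM. It shares 1529 exon bases with Malsu1 on the opposite strand, a gene with a mean of 313 counts per library, so its few counts are uncertain. With the filter on low counts removed, its log2 fold change was 1.17 in spontaneous ALIOS tumours (adjusted p = 0.0878), 1.86 in ALIOS DEN tumours (adjusted p = 0.013) and 1.73 in control-diet DEN tumours (adjusted p = 0.0231, edgeR). Igf2bp2, the other member of this family, had log2 fold changes of -0.06, 0.13 and -1.06 (adjusted p = 0.00976 for the last, edgeR).

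The let-7 microRNAs share 1 seed, the bases 2 to 8 that pair with a target. In RefSeq (GRCm38.p6) 11 mouse mature microRNAs carry it, among them let-7a, let-7g and miR-98, which are shown with the seed in capitals because the Lin28b branch is known to act through it. MicroRNAs were not measured in these libraries.
mmu-let-7a-5p: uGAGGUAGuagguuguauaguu
mmu-let-7g-5p: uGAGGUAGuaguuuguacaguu
mmu-miR-98-5p: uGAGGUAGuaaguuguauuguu

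The letters that pair with this seed, CTACCTC, were sought in 3′ untranslated regions of the Gencode annotation, sense strand only. They were present in 1879 of 20979 genes (8.96%). Lin28b held 4 matches, Igf2bp1 4, Igf2bp3 1 and Igdcc4 1, while Afp, Gpc3, Golm1 and Tspan8 held none. A match of each of the 4 genes is printed as RNA-sense DNA of GRCm38, with the seed match in capitals.
Lin28b, chr10:45381021-45381043, minus strand: cccgggcgggaagtCTACCTCat
Igf2bp1, chr11:95961777-95961799, minus strand: ctgtgcgaagtaaaCTACCTCaa
Igf2bp3, chr6:49086786-49086808, minus strand: gcatttttactcaaCTACCTCag
Igdcc4, chr9:65136322-65136344, plus strand: tcctaacaacatgaCTACCTCat
Of the 5 genes that rose in all 3 comparisons, Igdcc4 alone held a let-7 seed match, which describes letters and not regulation. Other genes of this axis were taken as a list. Of 17 tested from a list of 21, 5 rose and 1 fell in spontaneous ALIOS tumours, 4 rose and 1 fell in ALIOS DEN tumours, and 4 rose and 3 fell in control-diet DEN tumours, beside 26.9%, 27.7% and 27.3% of all genes called higher. Their median log2 fold changes of 0.086, 0.13 and 0.16 stood beside 0.01, 0.08 and 0.03 over all genes tested. Cdc25a, a phosphatase that drives the cell cycle, rose by 0.84, 0.98 and 1.13 on the log2 scale. Mycn, a growth-promoting transcription factor, rose by 1.74, 2.01 and 2.20. Ccnd1, a cyclin, rose by 3.12 in control-diet DEN tumours (edgeR adjusted p = 1.75e-11), with 0.95 in ALIOS DEN tumours (adjusted p = 0.0823). It was also higher in ALIOS than in control-diet livers, by 1.70 (edgeR adjusted p = 0.00141). Dis3l2, the nuclease that degrades let-7 precursors marked through Lin28, fell by 0.57, 0.44 and 0.53. Lin28a had 0 to 2 counts per tumour. Hmga2, a chromatin protein and let-7 target of the embryo, had 0 to 38 counts in tumours and 0 to 3 in livers.

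The promoters of the 5 genes that rose together are printed next, from RefSeq (GRCm38.p6), from 250 bases before to 50 after the start, in the direction of transcription. Capitals mark matches, on either strand, to the TATA box TATAAA, to the CCAAT word, to the GC box GGGCGG, to the HNF1 word GTTAAT, the FOXA word TGTTTAC, the AP-1 word TGANTCA, the TCF word CTTTGAA and the ETS word CCGGAAGT. Matches that overlap run together in capitals.
Afp, chr5:90490464-90490763, plus strand: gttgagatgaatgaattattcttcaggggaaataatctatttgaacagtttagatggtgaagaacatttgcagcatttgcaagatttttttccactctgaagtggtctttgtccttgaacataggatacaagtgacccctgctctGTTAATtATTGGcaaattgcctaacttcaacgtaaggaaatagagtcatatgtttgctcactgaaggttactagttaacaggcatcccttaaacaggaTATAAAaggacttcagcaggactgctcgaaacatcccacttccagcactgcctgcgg
Gpc3, chrX:52613925-52614224, minus strand: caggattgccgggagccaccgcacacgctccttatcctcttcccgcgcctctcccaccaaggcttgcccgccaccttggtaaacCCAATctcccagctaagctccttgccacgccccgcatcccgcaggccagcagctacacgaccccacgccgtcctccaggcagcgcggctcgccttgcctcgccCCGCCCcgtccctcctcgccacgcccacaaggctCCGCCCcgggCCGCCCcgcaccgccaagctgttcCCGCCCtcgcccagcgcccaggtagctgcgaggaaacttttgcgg
Igdcc4, chr9:65101236-65101535, plus strand: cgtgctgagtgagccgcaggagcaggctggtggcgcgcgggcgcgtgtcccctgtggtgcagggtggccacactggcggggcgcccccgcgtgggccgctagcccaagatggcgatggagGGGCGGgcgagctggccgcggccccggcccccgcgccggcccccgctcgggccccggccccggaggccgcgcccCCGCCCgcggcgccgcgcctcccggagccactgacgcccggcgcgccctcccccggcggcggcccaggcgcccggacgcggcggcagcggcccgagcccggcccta
Golm1, chr13:59675735-59676034, minus strand: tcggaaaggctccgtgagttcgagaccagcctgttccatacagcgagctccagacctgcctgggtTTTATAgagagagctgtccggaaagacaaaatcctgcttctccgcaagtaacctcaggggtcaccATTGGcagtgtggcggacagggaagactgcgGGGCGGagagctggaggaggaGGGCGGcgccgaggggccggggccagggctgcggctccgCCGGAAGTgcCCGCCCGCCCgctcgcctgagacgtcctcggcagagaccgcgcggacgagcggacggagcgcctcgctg
Tspan8, chr10:115817034-115817333, plus strand: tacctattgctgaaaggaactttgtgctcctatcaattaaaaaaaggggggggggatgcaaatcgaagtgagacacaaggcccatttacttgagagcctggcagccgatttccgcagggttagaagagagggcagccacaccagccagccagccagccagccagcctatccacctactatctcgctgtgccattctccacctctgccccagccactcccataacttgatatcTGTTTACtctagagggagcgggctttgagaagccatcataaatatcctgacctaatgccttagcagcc
Afp held a TATAAA at -7 from the RefSeq start (the Gencode start is 23 bases downstream), an HNF1 word at -105 and a CCAAT on the reverse strand at -98. Gpc3 held a CCAAT and 4 GC boxes, and Igdcc4 held 2 GC boxes. Golm1 held 4 GC boxes, a TATAAA and a CCAAT on the reverse strand and an ETS word at -29. Tspan8 held a FOXA word at -18, though the Gencode gene begins 452 bases upstream of the RefSeq start. None of the 8 words was in all 5 windows, and AP-1 and TCF words were in none. Among 32851 promoters of the same length, TATAAA was in 13.6%, CCAAT in 37.4%, the GC box in 35.7%, the HNF1 word in 7.1%, the FOXA word in 3.65%, the AP-1 word in 7.81%, the TCF word in 5.14% and the ETS word in 3.89%. CG pairs numbered 3 for Afp and 5 for Tspan8, against 30 for Gpc3, 49 for Igdcc4 and 30 for Golm1, with a median of 7 over all promoters. Genes with few and with many CG pairs were thus found among the 5.

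Tumour by tumour, the same 5 genes rose in almost every lesion. A gene was counted as raised in a tumour where it had at least 10 counts and a log2 CPM above the highest of the 23 livers. Afp and Gpc3 were raised in 26 of 26 tumours, and Igdcc4, Golm1 and Tspan8 in 25 of 26, the exception each time being T2. Igf2bp3 was raised in 8 of 26 (T4, T5, T10, T16, T26, T27, T17 and T18), by as little as 1.21-fold, and Igf2bp1 and Lin28b in 0. Over the 8 genes this made 135 of 208 pairs of gene and tumour, beside 83575 of 465530 pairs (18%) over all 17905 genes with enough counts. Of those genes, 172 (0.961%) were raised in at least 25 of the 26 tumours. With a margin of 4-fold over the highest liver, Afp, Gpc3 and Igdcc4 were raised in 24 tumours each, Tspan8 in 22 and Golm1 in 21.

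**Figure D3:**
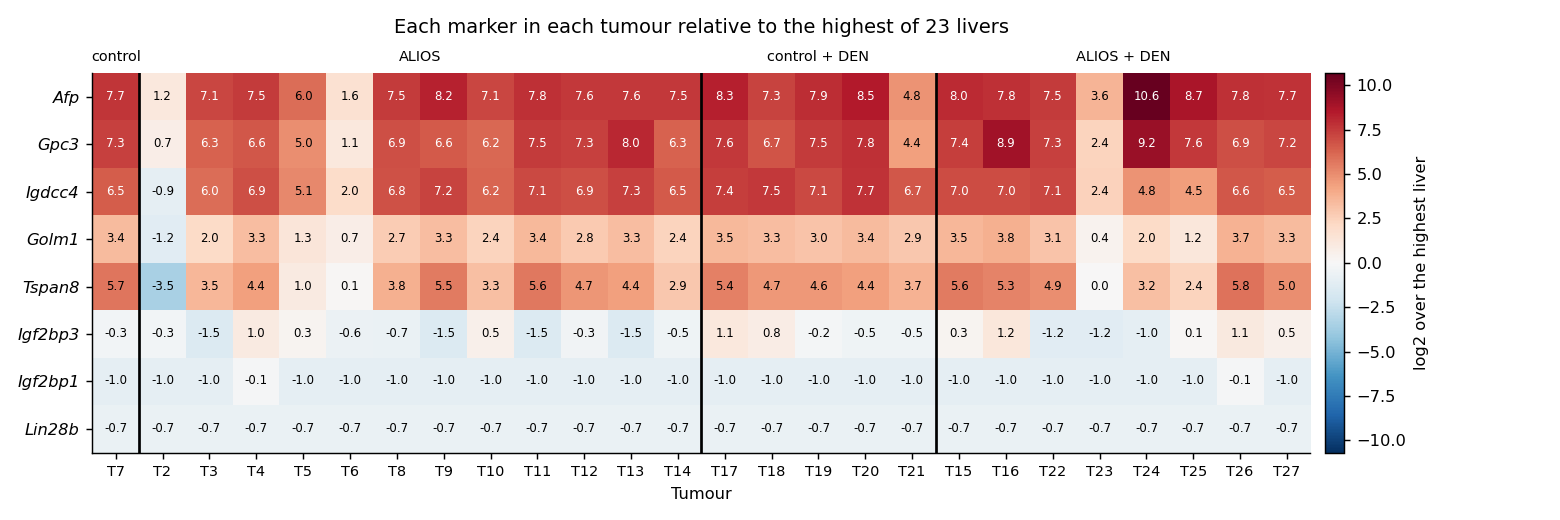
Log2 of each gene's level in each tumour over the highest of the 23 non-tumour livers, with tumours by group along 1 axis and the 8 genes along the other. T2, T6 and T23 are pale or blue for Afp, Gpc3, Igdcc4, Golm1 and Tspan8, and the rows of Igf2bp1 and Lin28b stay below 0 throughout.

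T2, T6 and T23 were low for all 5 genes. T6 had 9.23% of all genes raised, the lowest share of the tumours. The authors' clustering placed it in a sub-cluster of the non-tumour livers. In T2, the log2 difference from the highest liver was 1.17 for Afp and 0.73 for Gpc3, and it was -0.94 for Igdcc4, -1.19 for Golm1 and -3.46 for Tspan8. In T23, Golm1 exceeded the highest liver by 1.32-fold and Tspan8 by 1.01-fold. Summed macrophage markers were highest in T23 (645.9 CPM), T2 (543.8), T24 (523.5) and T6 (519.7) of all 26 tumours, where they ran from 56.8 CPM, and livers had 192.8 to 1055 CPM. Summed hepatocyte markers were lowest in T24 (97860 CPM), T2 (114300), T6 (123900), T23 (124000) and T25 (133100), with 119400 to 198500 CPM in livers. Alb alone made 54150 of the 114300 CPM in T2. A score that weights the hepatocyte genes equally ran the other way, with r from -0.539 to -0.641 against the 5 markers in the 12 spontaneous tumours (permutation adjusted p at least 0.121). The macrophage score had r from -0.443 to -0.614 (permutation adjusted p at least 0.145). None of these relations passed the threshold.

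Besides these tumours that were low throughout, 3 others split the 5 genes into a pair (Afp and Gpc3) and a trio (Igdcc4, Golm1 and Tspan8). The split was chosen after the values were seen and is a description. In T24, Afp was 3.06 and Gpc3 2.17 above the median of the 26 tumours on the log2 scale, while Igdcc4 was at -1.97, Golm1 at -1.01 and Tspan8 at -1.20. In T25, Afp was at 1.17 and Gpc3 at 0.508, while Igdcc4 was at -2.27, Golm1 at -1.88 and Tspan8 at -2.0. T21, a control-diet DEN tumour, went the other way, with Afp at -2.74 and Gpc3 at -2.66 beside Igdcc4 at -0.089, Golm1 at -0.145 and Tspan8 at -0.679. The mean of the pair minus the mean of the trio was 4.01 in T24, 2.88 in T25, -2.4 in T21 and -2.12 in T6. In the other 22 tumours it lay between -0.763 and 0.469. T24 also had the most summed stellate cell and fibroblast marker RNA of the tumours (1312 CPM, from 115.7), and the part of this in its split was not tested.

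**Figure D4:**
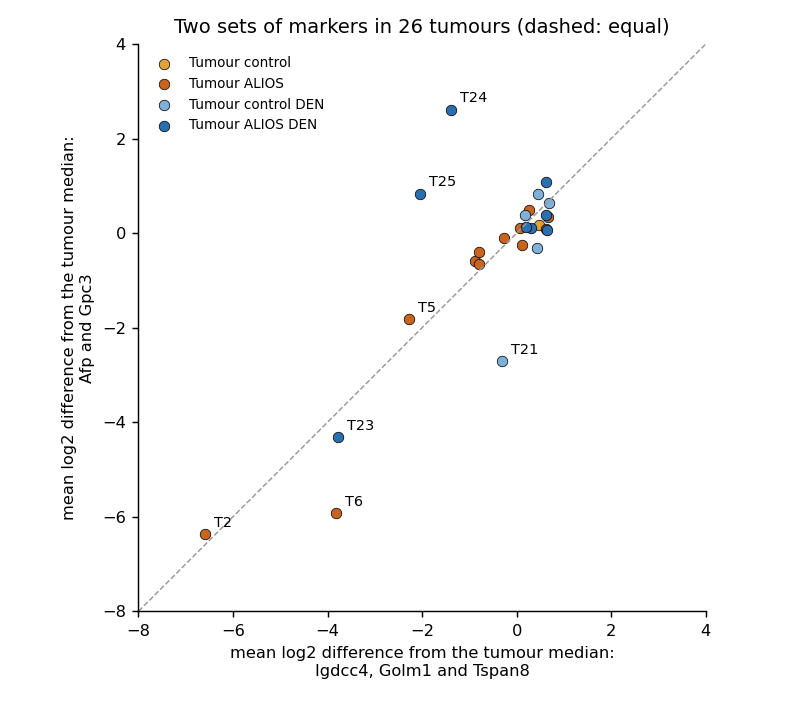
Mean log2 deviation from the median of 26 tumours for Igdcc4, Golm1 and Tspan8 (horizontal axis) and for Afp and Gpc3 (vertical axis), with 1 point per tumour, coloured by group. Most tumours lie near the dashed line of equal values, T24 and T25 above it, and T21 and T6 below it.

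Within the 12 spontaneous ALIOS tumours, 10 of the 21 gene pairs that could be computed had a correlation with an adjusted p under 0.05, namely all 10 pairs among the 5 genes. Pearson r ran from 0.916 to 0.982, but T2 and T6 stood apart as a low cluster, so the values were taken over the other 10 tumours, where 9 pairs remained past the threshold. Igdcc4 and Golm1 were closest (r = 0.955, permutation p = 2e-05, adjusted p = 0.00042; rho = 0.891, permutation p = 0.00104), with r = 0.856 without T3 and T5. Afp followed Igdcc4 as well (r = 0.934, permutation p = 0.00019, adjusted p = 0.00186; rho = 0.915, permutation p = 0.00053), with r = 0.874 once T5 and T9, the farthest from the median of Afp, were left out. Afp and Gpc3 were the weakest pair (r = 0.716, permutation p = 0.0306, adjusted p = 0.0643; rho = 0.685, permutation p = 0.0345).

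Within the 8 ALIOS DEN tumours the pattern was narrower, with 4 pairs past the threshold. Golm1 and Tspan8 had r = 0.979 (exact permutation p = 0.000273, adjusted p = 0.00573; rho = 0.929, exact permutation p = 0.00223), and r = 0.981 without T23. Afp and Gpc3 had r = 0.921 (exact permutation p = 0.00816, adjusted p = 0.0428; rho = 0.833, exact permutation p = 0.0154), which fell to 0.068 without T23 and T24, so this relation rests on those tumours. Afp and Igdcc4 had r = 0.424 (exact permutation p = 0.274, adjusted p = 0.443; rho = -0.0952, exact permutation p = 0.84). Without T23 it was -0.802 (exact permutation p = 0.0339, adjusted p = 0.178), but -0.165 once T24 and T25 were also left out. The same step took Afp and Golm1 from -0.645 to 0.808 and Afp and Tspan8 from -0.7 to 0.743, so the negative values rest on T24 and T25. It also took Igdcc4 and Golm1 from 0.927 to -0.203 and Igdcc4 and Tspan8 from 0.942 to -0.136, and left Golm1 and Tspan8 at 0.716. Without T23 and T24, Golm1 and Tspan8 had r = 0.98 over 6 tumours, where no pair passed the threshold. Whether the correlations differed between spontaneous and DEN tumours was not tested. The 5 control-diet DEN tumours were too few for a correlation.

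**Figure D5:**
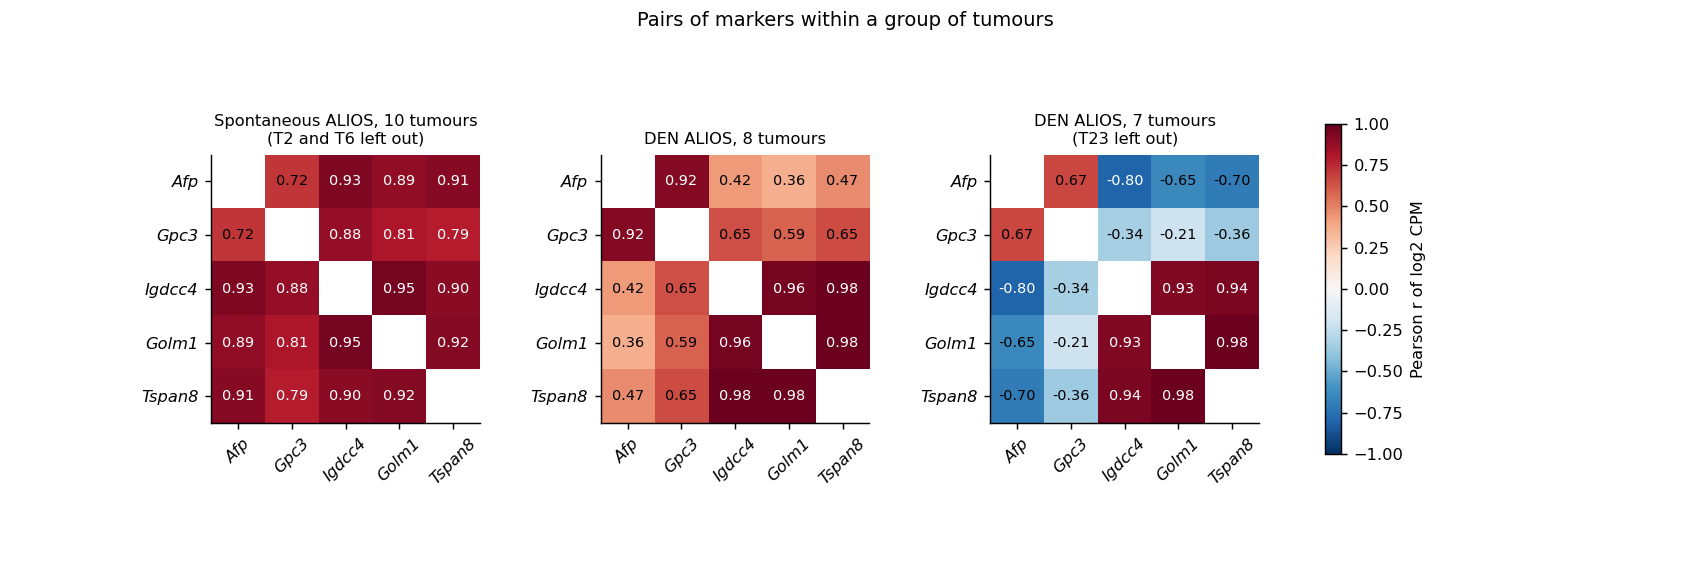
Pearson r of log2 CPM for the pairs among Afp, Gpc3, Igdcc4, Golm1 and Tspan8 in 10 spontaneous ALIOS tumours (without T2 and T6), 8 ALIOS DEN tumours and 7 of these (without T23), with the value in each cell and colour from -1 to 1. The spontaneous panel is positive throughout, and in the last panel Afp and Gpc3 are negative with Igdcc4, Golm1 and Tspan8. None of these negative values passed the threshold. For Afp they rest on T24 and T25. For Gpc3 they depend on the tumours left out, with 0.106, 0.114 and -0.0472 without T23 and T24. Without T16 as well, they were -0.511, -0.742 and -0.731.

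The levels were also compared with scores of 6 gene lists (proliferation, MAPK output, beta-catenin targets, hepatocyte, cholangiocyte and macrophage genes), 72 relations in all, of which 13 had an adjusted p under 0.05. The list of MAPK output genes, the feedback inhibitors and targets of the RAS and ERK pathway such as Dusp6, Spry4 and Etv4, ran with all 5 genes in the 12 spontaneous tumours (r from 0.921 to 0.956). In the 8 ALIOS DEN tumours it ran with Igdcc4 (r = 0.947), Golm1 (r = 0.941) and Tspan8 (r = 0.979). The list of beta-catenin targets ran against all 5 genes in the spontaneous tumours (r from -0.762 to -0.844). In the 8 ALIOS DEN tumours the values for this list were 0.278 with Afp, -0.0178 with Gpc3, -0.642 with Igdcc4, -0.703 with Golm1 and -0.622 with Tspan8, none past the threshold. T24 and T25 were the farthest from the median of that score. Without them the values, in the same order, were -0.783, -0.826, -0.706, -0.833 and -0.755. Without T23 as well, they were -0.683, -0.576, 0.347, -0.791 and -0.216. Neither set of values was tested. For Tspan8 the relation was r = 0.921 over 12 tumours (permutation p = 4e-05, adjusted p = 0.00072; rho = 0.867, permutation p = 0.00054) and r = 0.979 over 8 (exact permutation p = 9.92e-05, adjusted p = 0.00119; rho = 0.952, exact permutation p = 0.00114). Without T2, T6 and T23, 6 of the 13 relations were past the threshold, being MAPK output with Afp (r = 0.843), Igdcc4 (r = 0.846), Golm1 (r = 0.862) and Tspan8 (r = 0.81) in spontaneous tumours, MAPK output with Tspan8 in DEN tumours (r = 0.904), and beta-catenin targets with Igdcc4 (r = -0.82, permutation adjusted p = 0.0498). By Spearman's rho over the same tumours none of these 6 passed, with permutation adjusted p from 0.243 to 0.41. Once T3 and T5 were left out as well, beta-catenin targets with Igdcc4 fell to r = -0.478. MAPK output fell to r = 0.467 with Igdcc4 and 0.609 with Golm1, and kept 0.704 with Afp and 0.779 with Tspan8, so that the relations with Igdcc4 rest on those tumours.

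DEN and spontaneous tumours of the ALIOS diet were compared directly. No gene of the 8 passed the test, and neither did any of 14845 genes (0.0% by edgeR, with 1079 at an unadjusted p under 0.05 and 86 called by DESeq2). The log2 difference of DEN minus spontaneous was 1.38 for Afp (95% interval -0.07 to 2.82, adjusted p = 0.735), and 0.53 without T24. It was 1.26 for Gpc3 (-0.18 to 2.71), -0.17 for Igdcc4 (-1.53 to 1.20), 0.39 for Golm1 (-0.60 to 1.39) and 0.65 for Tspan8 (-0.92 to 2.21). The intervals of Afp, Gpc3 and Tspan8 include a level in DEN tumours that is 4-fold higher, and those of Igdcc4 and Golm1 do not.

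The ALIOS diet was compared with the control diet in liver without tumour, where 11.2% of genes were called in either direction. Golm1 rose by 0.77 on the log2 scale (SE 0.24, edgeR adjusted p = 0.0447) and Tspan8 by 1.58 (SE 0.48, adjusted p = 0.0342), which made 2 of the 8 genes. Afp (-0.12, adjusted p = 0.731) and Gpc3 (0.16, adjusted p = 0.815) were not called, and Igdcc4 was filtered out. Both calls were close to the threshold. With each of the 23 livers left out in turn, Golm1 lost its call for 15 of them and Tspan8 for 8, with adjusted p-values up to 0.112 and 0.108. Both values moved most without the ALIOS liver N17, to 0.55 for Golm1 (adjusted p = 0.112) and 1.11 for Tspan8 (adjusted p = 0.108). N17 had 8.46 CPM of Golm1, 11.7 CPM of Tspan8 and 0.429 CPM of Igdcc4, the highest of all livers for each. It also had the highest summed cholangiocyte markers of the livers (377.6 CPM) and stellate cell markers (596.3 CPM), and their part was not tested.

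In DEN tumours the diet made 0 calls among the 8 genes, beside 0.0134% of all genes (2 of 14944 by edgeR). Among all genes 1273 had an unadjusted p under 0.05, none of the 8 was called by DESeq2 either, and DESeq2 called 156 genes. The log2 difference of ALIOS minus control diet was 0.85 for Afp (95% interval -0.91 to 2.61), 0.73 for Gpc3 (-0.90 to 2.36), -1.01 for Igdcc4 (-2.23 to 0.21), -0.22 for Golm1 (-1.22 to 0.78), 0.12 for Tspan8 (-1.33 to 1.57) and -0.07 for Igf2bp3 (-1.39 to 1.25). The difference between the DEN tumour effects on the 2 diets was tested as an interaction, which called 0 of the 8 genes beside 2.27% of all genes. Igdcc4 came nearest, with a tumour effect smaller on the ALIOS diet by 2.13 on the log2 scale (interaction -2.13, interval -3.68 to -0.59, edgeR p = 0.00826, adjusted p = 0.13). DESeq2 called it (-2.18, adjusted p = 0.0457), and among all genes 2617 had an unadjusted p under 0.05 by edgeR. The livers in this estimate had 1 to 5 counts of Igdcc4 on the control diet and 1 to 13 on the ALIOS diet. With the filter on low counts removed, the diet difference of Igdcc4 in liver was 1.12 (edgeR adjusted p = 0.0684). The size of the interaction is therefore uncertain.

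From 20 paralogs and chromosomal neighbours 15 were tested, and 6 rose and 1 fell in spontaneous ALIOS tumours, 7 and 1 in ALIOS DEN tumours (4 fell without T24), and 10 and 2 in control-diet DEN tumours, beside 26.9%, 27.7% and 27.3% of all genes called higher. Their medians were 0.22, 0.21 and 0.73. Casc4, the paralog of Golm1, rose by 4.19, 4.34 and 5.17 on the log2 scale (SE 0.47, 0.49 and 0.19), beside 3.82, 4.27 and 5.27 for Golm1. Gpc6, a glypican of another branch than Gpc3, rose by 2.64, 2.51 and 3.21, and Tspan9 by 1.07, 1.20 and 1.08. Alb and Afm, which sit beside Afp in the albumin gene cluster, rose by 0.79, 0.79 and 0.92 and by 0.75, 0.85 and 0.82, beside 8.18, 9.59 and 8.64 for Afp. The call of Alb in ALIOS DEN tumours was lost without any of T15, T16, T22 or T27.

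Of 16 known or proposed regulators of Afp, 3 rose and 6 fell in spontaneous ALIOS tumours, where 26.9% of all genes rose and 25.9% fell. In ALIOS DEN tumours 3 rose and 7 fell (27.7% and 19.8% of all genes), and in control-diet DEN tumours 2 rose and 4 fell (27.3% and 24.4%). These counts were unstable, with 2 falling in spontaneous tumours without N16, 3 without N18, N23, T6 or T12, and 4 falling in ALIOS DEN tumours without T27 or 1 rising without T16, and 6 falling in control-diet DEN tumours without N9. Their median log2 fold changes of -0.20, -0.26 and -0.12 stood beside 0.01, 0.08 and 0.03 over all genes tested. Zhx2 and Zbtb20 encode repressors that silence Afp after birth. Zhx2 fell by 0.29 (edgeR adjusted p = 0.021) and 0.30 (adjusted p = 0.0364) on the ALIOS diet, with -0.09 in control-diet DEN tumours (adjusted p = 0.461). Zbtb20 fell by 0.36 (adjusted p = 0.0209) and 0.56 (adjusted p = 0.00939), with -0.15 in control-diet DEN tumours (adjusted p = 0.58). Both Zhx2 calls, and that of Zbtb20 in spontaneous tumours, were lost on leaving out any of 4 to 5 single libraries of the 23 or 19. Trp53, also a repressor of Afp, rose by 0.66, 0.80 and 0.80. Cebpa, an activator of hepatocyte genes, fell by 0.55, 0.73 and 0.55.

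Of 25 other fetal liver genes, 12 of 18 tested rose and 1 fell in spontaneous ALIOS tumours, 12 of 19 rose and 0 fell in ALIOS DEN tumours, and 18 of 22 rose and 1 fell in control-diet DEN tumours, beside the shares of all genes given above. Their median log2 fold changes were 1.40, 1.38 and 2.10, beside 0.01, 0.08 and 0.03 over all genes tested. Akr1c18, a steroid-reducing enzyme, rose by 8.01, 8.40 and 10.11, and Scd2, the fatty acid desaturase of fetal tissue, rose by 4.08, 4.17 and 5.39. H19, the imprinted fetal long non-coding RNA, rose by 5.82 (edgeR adjusted p = 9.74e-05), 5.28 (adjusted p = 1.04e-05) and 7.59 (adjusted p = 4.96e-10), and ranged from 1.28 (T2) to 671 CPM (T13) over the tumours. It moved with single tumours, and was 3.55 without T13, 4.46 without T16 and 6.80 without T20, with each call kept. Its imprinted neighbour Igf2, a fetal growth factor, rose by 1.71 (adjusted p = 0.00127) in ALIOS DEN tumours, with 1.02 in control-diet DEN tumours (adjusted p = 0.0538). In spontaneous ALIOS tumours it had 1.90 (adjusted p = 0.0138), a call that rested on T2 and T3, without which the value was 0.40 (adjusted p = 0.365). Sall4, a stem cell factor of the fetal liver, went the other way and fell, with log2 fold changes of -1.83 (adjusted p = 0.0184) in spontaneous ALIOS tumours and -5.08 (adjusted p = 5.67e-05) in control-diet DEN tumours, beside -1.68 in ALIOS DEN tumours (adjusted p = 0.0844).

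Of 27 other liver cancer markers, 4 of which (Akr1c18, Mdk, Sox9 and Epcam) are also on the fetal list, 26 were tested. Of these 15 rose and 1 fell in spontaneous ALIOS tumours, 17 and 0 in ALIOS DEN tumours, and 18 and 1 in control-diet DEN tumours, with medians of 1.20, 2.18 and 1.38. Of 36 proliferation genes, 20 rose and 3 fell in spontaneous ALIOS tumours, 24 and 3 in ALIOS DEN tumours, and 30 and 1 in control-diet DEN tumours, with medians of 0.90, 2.22 and 2.31. With 1 library left out, the proliferation genes that rose in spontaneous ALIOS tumours ran from 17 (without T4) to 26 (without N19). They ran from 24 to 26 in ALIOS DEN tumours and from 30 to 32 in control-diet DEN tumours. For both lists the share of all genes called higher was 26.9%, 27.7% and 27.3%. Mki67, the antigen of cycling cells, rose by 1.91, 2.99 and 3.67. T23, one of the lesions low for the 5 oncofetal genes, also had the lowest summed proliferation markers of the tumours (107.6 CPM, with 486.8 CPM in T27 the highest).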

How the data were processed

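The authors prepared stranded mRNA libraries, sequenced 100-base paired ends, aligned them to mm10 with STAR in 2 passes and counted reads per gene with HTSeq on Gencode M6. Versions and the strand setting are not given in the sources used here. The deposited table holds raw counts per gene. The 8 genes and all gene lists were chosen with earlier results of these data known. Differences were tested with edgeR 4.0.16 in R 4.3.3 (filterByExpr, TMM factors, quasi-likelihood test) on the groups compared, Benjamini-Hochberg adjusted over all genes tested, and called at an adjusted p under 0.05. DESeq2 1.42.0 was an alternative. Levels are CPM; log2 CPM used a prior count of 2. Correlations were computed in Python 3.11.15 with scipy 1.17.1, with 2-sided p-values adjusted over the pairs computed; they were exact under 10 tumours and from 100000 resamples otherwise. List scores are mean z scores of genes with a mean CPM of at least 1. All 8 members were named, with up to 4 called genes per list and a few fixed by name. The called genes named were not always those of smallest p. Coordinates are from Gencode M21 (GRCm38); promoters and microRNAs are from RefSeq, with 7 of the 8 genes matched. The scripts were tested on simulated data. No labelled batch or pairing was found, and the closest 2 libraries of a group differed beyond sampling noise (chi-square 12.0 per gene).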

Additional observations from a re-analysis of the deposited data

Results flagged for a closer look

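In the 8 ALIOS DEN tumours, T23 lay far below the other 7 for Afp (log2 CPM 4.31) and for Gpc3 (log2 CPM 2.83), beyond Dixon's 95% critical value for the group size. These were 2 of 12 tests of a gene in a group, and chance flags about 1 in 20.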

How the results depend on the processing

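Of 849 alternative values, 797 were classed as unchanged. Of these, 664 were values of single genes that kept their side of the threshold. The other 133 were counts and summary values that stayed close to the main value. No gene called in either run reversed, and changes of sign in genes called in neither run were not counted. The 5 genes called higher than liver stayed called in each alternative run, those added after seeing the data (without T2 and T6, without T23, without N17, and each library of a comparison left out in turn, 82 fits) included. The 2 genes called for diet in liver fell to 1 with no filter on low counts, 1 with a 2-fold minimum, 0 with all groups in 1 fit and 0 without N17, and lay between 0 and 2 with any other liver left out. In the interaction DESeq2 called 1 of the 8 genes (Igdcc4) in place of 0. Pairs correlated within ALIOS DEN tumours fell from 4 to 1 with Spearman's rho, 1 without T24, 1 without T23 and 0 without T23 and T24. Relations with list scores fell from 13 to 6 without T2, T6 and T23, and none of those 6 passed by Spearman's rho. Igf2bp3 was called in ALIOS DEN tumours by DESeq2 (1.93, adjusted p = 0.00478) and in control-diet DEN tumours (1.80, adjusted p = 0.0146). The cause of these changes was not tested. Calls over all genes varied more. For DEN against spontaneous tumours they were 0 by edgeR, 86 by DESeq2 and 403 with all groups in 1 fit. For diet in DEN tumours they were 2, 156 and 296, and 14 by edgeR without T24. For diet in liver they were 1542, 2445 and 623, and 949 by edgeR without N17. For the interaction they were 354, 646 and 220, and by edgeR from 174 without T17 to 732 without T24. A 2-fold minimum left 1990, 2310 and 3177 of 7487, 6851 and 7618 calls against liver, in the order used above. Depth limits Lin28b, Igf2bp1 and Igf2bp3, whose counts are at or near the limit that a count of 0 allows. Igdcc4 was near this limit in liver, with 1 to 5 counts on the control diet and 1 to 13 on the ALIOS diet. Its fold changes against liver are therefore uncertain in size.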

Other observations

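Genes whose levels ranked most like those of a marker were sought over the 12 spontaneous ALIOS tumours and the 8 ALIOS DEN tumours, among 12707 genes, by the mean of the 2 Spearman rho values, as a description with no test. Nearest to Afp were Gprc5a (0.85), Zc3h15 (0.849) and Arf6 (0.824). Nearest to Gpc3 were Prkcsh (0.923), Ocstamp (0.874) and Tbrg1 (0.87). Igdcc4 was followed by Rrbp1 (0.974), a ribosome-binding protein of the endoplasmic reticulum, by D1Ertd622e (0.959) and by Myo18a (0.946). Golm1 was followed by Arfip1 (0.971), Calu (0.965), a calcium-binding protein of the secretory pathway, and Glis3 (0.964). Tspan8 was followed by Cpne2 (0.978), Clip2 (0.973) and Sccpdh (0.958). No gene was among the nearest 3 of more than 1 marker. All these points share the libraries, and T2, T6 and T23 are low in each of the 5 markers.

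In liver without tumour, the ALIOS diet went with higher H19 (log2 difference 1.86, edgeR adjusted p = 0.0164) and higher Mki67 (1.69, adjusted p = 0.00831), whereas Afp (-0.12) and Gpc3 (0.16) were not called. Without N17, the liver with the most H19, H19 had 1.31 (adjusted p = 0.0465), and the lowest value for Mki67 with any 1 liver left out was 1.32 (adjusted p = 0.0209, without N19). Of 15 fetal liver genes tested there, 9 rose and 0 fell, and 8 rose without N17, beside 6.73% of all genes. Marker genes of other cells also rose there, 7 of 11 of macrophages and 4 of 10 of cholangiocytes, a list that shares Epcam and Sox9 with the fetal list; their part in the result was not tested.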
